A study of Glycine max with 12 samples.

Results

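Flavanone 3-hydroxylase (F3H) and the cytochrome P450 CYP93E1 are each represented by a single cDNA spot on a soybean array of 5760 spots. The members were every spot whose symbol in the platform annotation is F3H or CYP93E1, which gave 2 spots of the 253 that carry a symbol: clone AW277481 for F3H and clone AW507877 for CYP93E1. The pair was chosen by measured values, the treated over control ratios of these same arrays, which were known to be low. Their ratios are therefore given as a description, without p-values. Both clones belong to genes with an entry in the RefSeq soybean annotation (Glycine_max_v4.0), where F3H also goes by F3H2 and the genes lie on different chromosomes.

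F3H is a soluble, 2-oxoglutarate-dependent dioxygenase that converts flavanones such as naringenin into dihydroflavonols, the entry to flavonols, anthocyanins and proanthocyanidins. In soybean the same flavanones also feed isoflavone synthesis, so F3H stands at a branch of the flavonoid pathway. CYP93E1 is a membrane-bound P450 that hydroxylates the triterpene β-amyrin and the related sophoradiol at carbon 24, a step of soyasaponin synthesis, and like most plant P450s it is anchored in the membrane of the endoplasmic reticulum (ER).

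The RNA came from first trifoliate leaves of 3-week-old soybean shoots, cultivar Dare, cut below the cotyledons and stood in solution, a wounding that the controls share. Tunicamycin (TUN, 10 ug/ml for 24 h against DMSO) blocks N-glycosylation, and L-azetidine-2-carboxylic acid (AZC, 50 mM for 16 h against water) is a proline analogue; both burden protein folding in the ER. Polyethylene glycol (PEG, 10 % w/v for 16 h against water) withdraws water. Each treatment had 2 biological replicates, and each replicate was hybridized with both dye orientations, which gave 4 hybridizations per treatment and 12 in all. Whether the water plants of AZC and of PEG were the same is not given in the sources used here. The clones came from developing-seed libraries, and a spot of amplified cDNA also binds transcripts of near-identical gene copies.

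Median foreground was 3.47 to 13.4 times the local background in Cy3 and 3.15 to 11.2 times in Cy5. In 11 hybridizations at least 96.9% of the spots stood above background in either channel; the remaining array, on which Cy5 held the treated RNA of PEG replicate 2 and which alone was quantified by another spot-finding method, had 82.7% in Cy3 and 44.7% in Cy5. For PEG replicate 1 the pair of scanner files was exchanged, because each matched the deposited ratios of the other hybridization. ER-stress marker clones (BiP and calnexin, 6 spots) had log2 ratios of 0.05 to 6.12 in TUN, 0.02 to 5.73 in AZC and -1.67 to 0.14 in PEG, and 4 osmotic-stress spots (PM12 and PM34) 0.89 to 3.25 in PEG. PM30 stood at 4.79 in PEG, but its control RNA was above background on only 2 of 4 hybridizations there. Of 2 leaf photosynthesis clones, PSAD had ratios of 0.09 in TUN, 0.25 in AZC and 0.38 in PEG, and LOC547819 had -3.58, -5.35 and -5.24; the 6 seed storage clones lay between -0.62 and 0.62 in every treatment. The part of these shifts in the results below was not tested. The leaf and seed marker clones stood above background in control RNA on at least 3 of the 4 hybridizations of each treatment.

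The F3H spot carried none of the marks that were left out and no saturated pixel on any array. It stood above background in control RNA on 12 of 12 hybridizations. Treated RNA did so on 11 of 12, the exception being the Cy5 channel of PEG replicate 2. The readings that follow are scanner intensities after the local background was taken off. In TUN replicate 1 the treated channel read 647 in Cy5 and 481 in Cy3, against 786 and 899 for DMSO. In TUN replicate 2 it read 195 and 446, against 751 and 411. In AZC replicate 1 it read 268 and 382, against 1216 and 1235 for water. Treated RNA was the dimmer channel in each of these except TUN replicate 2 in Cy3. In AZC replicate 2 it read 168 and 271, against 345 and 530, so that treated RNA was dimmer in 7 of the 8 hybridizations of TUN and AZC. In PEG replicate 1 the treated channel read 262 in Cy5 and 1244 in Cy3, against 1700 and 713. In PEG replicate 2 it read 73 and 576, against 875 and 348. Here the Cy3 channel was the brighter one whichever RNA it held, a dye difference that the loess normalization within each array is there to take out.

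After normalization, F3H was lower in all 8 hybridizations of the ER stressors. In TUN the log2 ratio of treated over control was -1.53 with the treated RNA in Cy5 and -1.53 in Cy3 for replicate 1, and -1.76 and -0.93 for replicate 2. In AZC it was -3.12 and -2.18 for replicate 1, and -1.78 and -1.23 for replicate 2. In PEG it was -0.83 and 0.16 for replicate 1, and -0.62 and -0.03 for replicate 2. Every TUN and AZC value lay below every PEG value, TUN and AZC values overlapped each other, and 1 PEG value lay above 0.

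**Figure D1:**
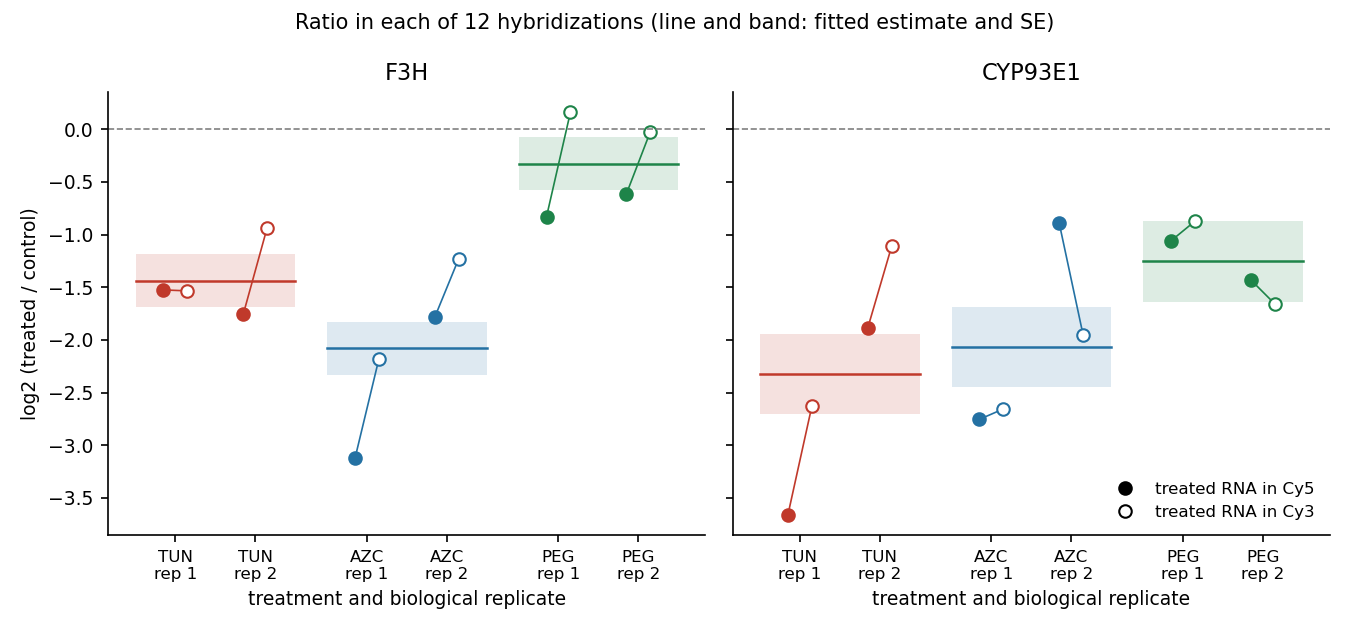
Log2 ratio of treated over control (y axis) for F3H (left) and CYP93E1 (right) in each hybridization, by treatment and biological replicate (x axis). Filled points have the treated RNA in Cy5 and open points in Cy3, thin lines join a dye-swap pair, and the horizontal line and band are the fitted estimate and its SE. F3H was below 0 in 11 of 12 hybridizations and CYP93E1 in 12 of 12.

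Averaged over the dye-swap pair, F3H stood at -1.53 and -1.34 in the TUN replicates, at -2.65 and -1.51 in AZC, and at -0.33 and -0.32 in PEG. The fit across all clones with limma gave -1.44 (SE 0.25, n = 2), a 2.71-fold lower level, in TUN. In AZC it gave -2.08 (SE 0.25, n = 2), 4.23-fold lower, and in PEG -0.33 (SE 0.25, n = 2), 1.25-fold lower. The fit shares its SE over the treatments. The SD between the replicates of F3H was 0.13 in TUN, 0.81 in AZC and 0.0095 in PEG. The fit called F3H (adjusted p under 0.05) in TUN and AZC and not in PEG. Since these ratios chose the pair, a call of either member here and below only describes where its value stood against the threshold, and is no evidence of a change. For background, 7.26% of the 4905 clones tested in TUN were called, 2.75% lower and 4.51% higher. In AZC 9.1% of 5023 were called, 5.12% lower and 3.98% higher, and in PEG 11.6% of 4345, 7.02% lower and 4.58% higher. The number of arrays limits the precision of all these values, and the replicates are separate plants whose RNA is a bulk of leaf cells, so fewer cells of a type and less RNA per cell cannot be told apart.

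Placed among the fitted ratios, 50 tested clones lay lower than F3H in TUN, 60 in AZC and 578 in PEG. In single hybridizations between 0.707% and 2.60% of the measured spots were lower than F3H in TUN, and between 0.674% and 2.13% in AZC. In PEG the shares were 5.03% and 12.6% with the treated RNA in Cy5 and 66.7% and 47.6% in Cy3, so that F3H sat in the middle of the array in 1 orientation and towards its low end in the other.

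Dye orientation moved with the F3H ratio throughout. The value with the treated RNA in Cy5 was lower than its dye-swapped partner in 5 of 6 pairs, with Cy5 minus Cy3 between -0.99 and -0.55 on the log2 scale, and the 1 remaining pair, TUN replicate 1, differed by 0.01. Averaged over the 6 pairs, Cy5 minus Cy3 was -0.65, and 1.33% of the 3523 spots measured on every array had a lower value. A constant dye effect cancels in the mean of a pair. In Cy5 alone F3H stood at -1.64 in TUN, -2.45 in AZC and -0.72 in PEG, and in Cy3 alone at -1.23, -1.70 and 0.07. With the Cy3 hybridizations alone, which were all quantified on the same day, the TUN value no longer passed the threshold and the PEG value changed sign. The order of the treatments, with AZC lowest and PEG highest, was the same in either orientation.

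The difference between treatments was widest for F3H between PEG and AZC, at 1.75 (SE 0.36) on the log2 scale, next between PEG and TUN at 1.11 (SE 0.36), and smallest between AZC and TUN at -0.64 (SE 0.36). The AZC replicates differed from each other by more than AZC differed from TUN, with replicate 2 of AZC, at -1.51, next to both TUN replicates. Exposure was 24 h for TUN and 16 h for AZC and PEG.

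The size of the F3H ratio moved with the treatment of the local background. With no background correction it was -0.70 in TUN and -1.03 in AZC, with plain subtraction -0.89 and -1.28, and in the deposited log2 ratios -0.95 and -1.31, all of which passed the threshold in the same fit. Without TUN replicate 1 the TUN value was -1.34 and did not pass. In PEG the deposited log2 ratios gave -0.23, and with the PEG replicate 1 files taken as listed F3H was at 0.0067. Of the 12 deposited ratios of F3H, 11 were below 0.

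After normalization, CYP93E1 was lower in every hybridization. Its spot was likewise free of the marks left out and unsaturated. It stood above background in control RNA on 12 of 12 hybridizations and in treated RNA on 11 of 12, with the same exception as F3H. In TUN replicate 1 the treated channel read 563 in Cy5 and 776 in Cy3, against 2046 and 2849 for DMSO. In TUN replicate 2 it read 411 and 932, against 2065 and 1049. All 4 treated readings of TUN were below the DMSO reading of the same hybridization. In AZC replicate 1 the treated channel read 417 and 673, against 2184 and 2687 for water. In AZC replicate 2 it read 350 and 270, against 577 and 744. In AZC replicate 2 both RNAs read lower than in replicate 1, and the difference was larger for the water RNA. In PEG the treated channel read 289 and 827 in replicate 1, against 2245 and 779, and 139 and 591 in replicate 2, against 2253 and 730. Treated RNA was the brighter channel only in PEG replicate 1 in Cy3.

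After normalization the log2 ratio of CYP93E1 in TUN was -3.66 with the treated RNA in Cy5 and -2.63 in Cy3 for replicate 1, and -1.89 and -1.11 for replicate 2. In AZC it was -2.75 and -2.66 for replicate 1, and -0.89 and -1.96 for replicate 2. In PEG it was -1.06 and -0.87 for replicate 1, and -1.43 and -1.66 for replicate 2. In both TUN and AZC replicate 1 lay below replicate 2 in every hybridization, with no overlap, and the values of replicate 2 overlapped those of PEG.

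The replicate means of CYP93E1 were -3.15 and -1.50 in TUN, -2.71 and -1.42 in AZC, and -0.97 and -1.54 in PEG. The fit gave -2.32 (SE 0.38, n = 2) in TUN, 5.0-fold lower than DMSO, and -2.06 (SE 0.38, n = 2) in AZC, 4.18-fold lower than water. In PEG it gave -1.26 (SE 0.38, n = 2), 2.39-fold lower. This SE is again shared over the treatments, and the SD between replicates was 1.16 in TUN, 0.91 in AZC and 0.41 in PEG. The fit called TUN and AZC and not PEG, a description as for F3H, beside the same shares of clones called as above. Among the clones tested, 17 lay lower than CYP93E1 in TUN, 61 in AZC and 111 in PEG. In single hybridizations 0.0357% and 0.0531% of the measured spots were lower than CYP93E1 in TUN replicate 1, and 0.99% and 1.71% in TUN replicate 2. The shares ran from 0.798% to 4.75% in AZC and from 2.73% to 4.59% in PEG.

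The replicates limit how closely the size of the CYP93E1 ratio is known. Without TUN replicate 1 the TUN estimate was -1.50 and without replicate 2 it was -3.15, both past the threshold. Without AZC replicate 1 the AZC estimate was -1.42 and did not pass, and without replicate 2 it was -2.71 and did. Without the intensity trend the AZC estimate did not pass. With no background correction the values were -1.57 in TUN, -1.31 in AZC and -0.58 in PEG. In the deposited log2 ratios they were -1.90, -1.57 and -0.89. Both gave the same calls as the fit above. All 12 deposited ratios of CYP93E1 were below 0.

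The PEG value of CYP93E1 lay close to the threshold. It passed when PEG was fitted by itself, when all 12 hybridizations were fitted with a dye term, with the replicate number as a block, and under median centring, where it was -1.41, and it was -0.29 with the PEG replicate 1 files as listed. In PEG replicate 2 in Cy5, the 5 spots around it that had a ratio had a median of -0.85, against -1.43 for CYP93E1 itself, and in the other 11 hybridizations the median of the spots around it lay between -0.44 and 0.17. Around F3H these medians ran from -0.46 to 0.64, both ends in PEG replicate 2. The spots of F3H and CYP93E1 were printed in the same block of the array. The part of these local shifts in the results was not tested; with print-tip loess, which normalizes each block by itself, CYP93E1 in PEG was -1.16.

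Dye orientation did not order the CYP93E1 ratio as it did that of F3H: the Cy5 value was lower in 4 pairs and the Cy3 value in 2, with differences from -1.03 to 1.06 and a mean of -0.13. In Cy5 alone the values were -2.77 in TUN, -1.82 in AZC and -1.24 in PEG, and in Cy3 alone -1.87, -2.31 and -1.27. TUN was therefore lowest in 1 orientation and AZC in the other, and the AZC value in Cy5 alone did not pass the threshold. The differences between treatments were 0.26 (SE 0.54) for AZC minus TUN, 0.81 (SE 0.54) for PEG minus AZC and 1.07 (SE 0.54) for PEG minus TUN on the log2 scale.

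The level of each spot in the 6 RNA groups, as log2 channel intensity after normalization between arrays, was taken beside the ratios. F3H was highest in the water RNA of AZC at 9.44 ± 0.80 (SD, n = 2), followed by DMSO at 8.87 ± 0.43 and the water RNA of PEG at 8.32 ± 0.44. It then stood at 8.0 ± 0.43 in PEG, 7.44 ± 0.30 in TUN and 7.36 ± 0.01 in AZC. The replicates of each neighbouring pair of groups in that order overlapped, with the exception of PEG and TUN. Control RNA varied as well: in the water RNA of AZC replicate 1 stood at 10.00 and replicate 2 at 8.87, while AZC itself stood at 7.35 and 7.37.

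CYP93E1 was highest in DMSO at 10.70 ± 0.31 (SD, n = 2) and in the water RNA of AZC at 10.57 ± 0.76, whose replicates overlapped. The water RNA of PEG stood lower, at 9.28 ± 0.43, with no overlap with either. AZC at 8.50 ± 0.15, TUN at 8.38 ± 0.85 and PEG at 8.02 ± 0.02 came last, with overlapping replicates from AZC to TUN and from TUN to PEG. PEG-treated leaves were thus no higher in CYP93E1 than TUN-treated or AZC-treated leaves, and the water RNA of PEG was lower than the other controls. Levels in different RNA groups come from different arrays and rest on the normalization between them, whereas each ratio was measured within an array.

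**Figure D2:**
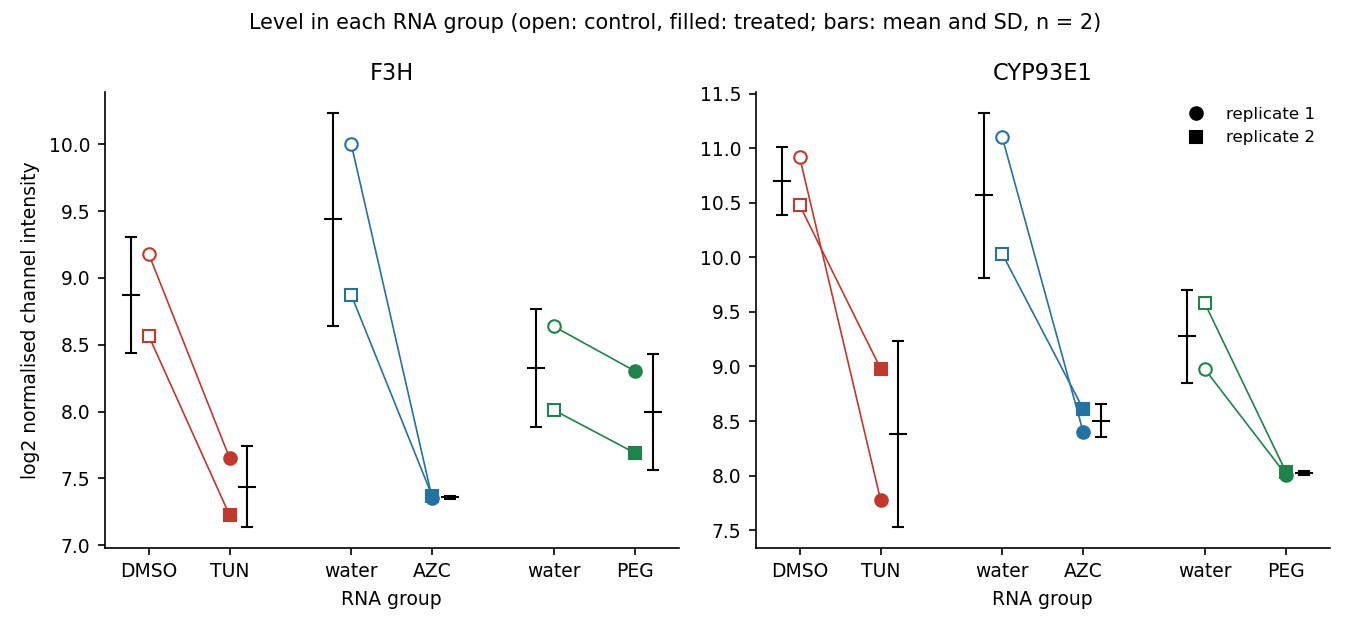
Log2 normalised channel intensity (y axis) of F3H (left) and CYP93E1 (right) in the 6 RNA groups (x axis), with open symbols for control and filled symbols for treated RNA. Circles are replicate 1 and squares replicate 2, each the mean of a dye-swap pair, lines join RNA hybridized together, and bars give mean and SD (n = 2). The water RNA of PEG lay below that of AZC for both spots, at 8.32 against 9.44 for F3H and at 9.28 against 10.57 for CYP93E1.

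Compared with each other over the replicates, F3H and CYP93E1 had nearly equal log2 ratios in AZC, where F3H minus CYP93E1 was 0.05 and -0.08. In TUN the gap was 1.62 in replicate 1 and 0.16 in replicate 2, and in PEG 0.63 and 1.22. CYP93E1 was thus the lower of the pair in 5 of 6 replicates. Their root mean square difference over the 6 replicate ratios was 0.87.

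The list of phenylpropanoid and flavonoid genes found 7 further clones with a symbol. CHS1 is chalcone synthase, the first committed enzyme, and DFR1 is dihydroflavonol reductase, which uses the product of F3H. IFR1 is isoflavone reductase of the isoflavonoid branch. The others were CHI1B1 and 3 clones of CHI3A1, named for the chalcone isomerase family, whose enzyme activity was not measured here. All 7 were tested in each treatment and 0 were called in either direction by limma. Since 7.26% of all clones tested were called in TUN, 9.1% in AZC and 11.6% in PEG, a count of 0 among 7 is near the background and is not a result about these clones. At an unadjusted p under 0.05, DFR1 alone was lower in AZC and none in TUN or PEG. Their median log2 ratio was 0.04 in TUN, -0.00096 in AZC and 0.11 in PEG, beside -0.0060, 0.0057 and 0.0061 over all clones tested.

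DFR1, the clone next after F3H in the pathway, had replicate ratios of -0.38 and -0.26 in TUN, -0.25 and -0.48 in AZC, and 0.14 and 0.04 in PEG. The fit gave -0.32 (SE 0.15, limma adjusted p = 0.33) in TUN, -0.37 (SE 0.15, limma adjusted p = 0.208) in AZC and 0.09 in PEG. Its replicates were below 0 in both ER stressors and above 0 in PEG. The fitted PEG value turned to -0.03 under median centring and to -0.047 with plain subtraction. With the PEG replicate 1 files as listed it was -0.049. No difference between treatments passed the threshold. Under median centring the AZC value was -0.58 and was called, and in PEG the value was 0.78 and called with the Cy3 hybridizations alone, but -0.60 and not called with Cy5 alone. The 4 PEG hybridizations of DFR1 ran from -0.82 to 0.90, with 2 below 0. CHS1 had replicate ratios of 0.11 and 0.45 in AZC (0.28, SE 0.13, limma adjusted p = 0.273) and the 3 CHI3A1 clones lay between -0.03 and 0.21 in the reported fit, and between -0.19 and 0.30 under median centring.

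The list of cytochrome P450 genes found, beside CYP93E1, 2 clones of CYP98A2, whose family is known in Arabidopsis for hydroxylating the ring of phenylpropanoid esters. Neither was called in any treatment by limma, and at an unadjusted p under 0.05 1 was lower in AZC and 1 in PEG. With 2 clones a count of 0 is near those background shares too. Clone AI794803 had replicate ratios of -0.63 and -0.41 in AZC, with a fitted value of -0.52 (SE 0.15, limma adjusted p = 0.072) that was called in 4 of the other settings. Clone AW186050 had replicate ratios of -0.21 and -0.34 in PEG, with a fitted value of -0.27 (SE 0.09, limma adjusted p = 0.0831) that was called in 1 of them. In AZC, AW186050 stood at -0.09, and the difference between these clones was not tested. The lists of triterpene, sterol and isoprenoid genes and of 2-oxoglutarate dioxygenases found 0 further clones with a symbol, so no other step of soyasaponin synthesis was measured under a name.

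**Figure D3:**
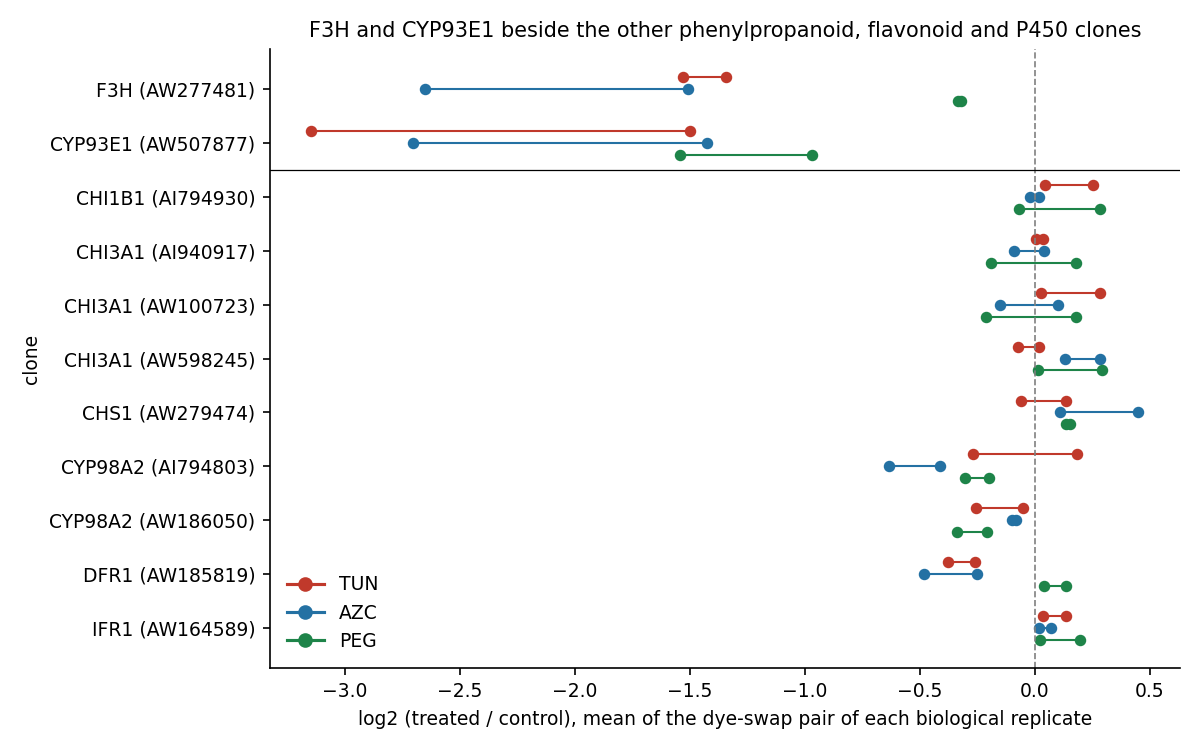
Log2 ratio of treated over control (x axis) for each biological replicate, as the mean of its dye-swap pair, of F3H and CYP93E1 (above the line) and the 9 other listed clones (below it), with a line joining the 2 replicates of a treatment. The 9 other clones lay between -0.63 and 0.45. Every TUN and AZC replicate of F3H and CYP93E1 was lower, as were the PEG replicates of CYP93E1 (-0.97 and -1.54). F3H and CYP93E1 were chosen with their low ratios known, so their place below the other clones follows from the choice.

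F3H and CYP93E1 were placed among the 4358 clones tested in TUN and AZC, 2 treatments with different solvents in their controls. Their fitted values lay below 0 in both, which follows from how the pair was chosen. The share of all these clones below 0 in both was not counted. The fitted values of the 9 other listed clones ran from -0.32 to 0.16 in TUN and from -0.52 to 0.28 in AZC.

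**Figure D4:**
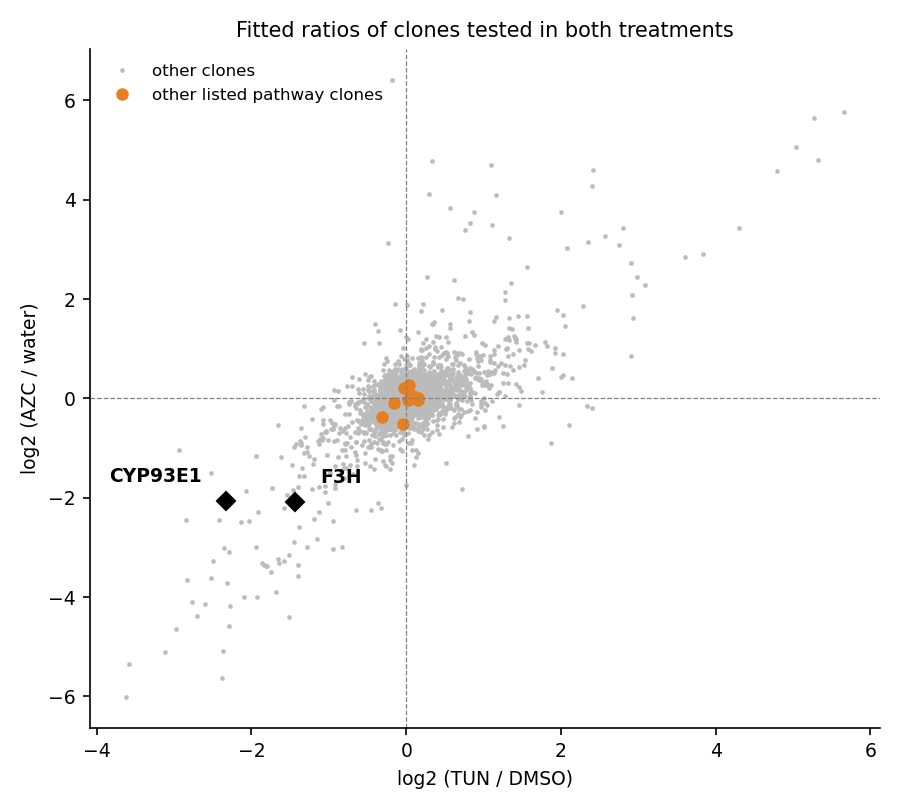
Fitted log2 ratio in TUN (x axis) and AZC (y axis) of 4358 clones tested in both, with F3H and CYP93E1 as diamonds and the 9 other listed pathway clones in orange. F3H stood at -1.44 and -2.08 and CYP93E1 at -2.32 and -2.06.

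Of 157 other clones with a symbol that were tested in all 3 treatments, LOC100037476 (AW508018) was most like both members, with a root mean square difference of 0.59 from F3H and 0.70 from CYP93E1 over the 6 replicate log2 ratios. Its ratios were -1.90 and -0.87 in TUN, -1.82 and -1.29 in AZC, and -0.73 and -1.22 in PEG. It was called in all 3 treatments. Like CYP93E1, it had the lower value in replicate 1 of TUN and AZC and in replicate 2 of PEG. FAD3A, named next, had the same order. Closeness over these replicate values picked the clones, so a shared order follows in part from the choice.

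After it came, for F3H, FAD3A (an omega-3 fatty acid desaturase, 0.66), MIPS (myo-inositol-1-phosphate synthase, 0.81), SODB (an iron superoxide dismutase, 0.87) and LOC547931 (also known as BMY1, a β-amylase, 0.88). For CYP93E1 the next were LOC547931 (0.97), FAD3A (0.98), MIPS (1.13) and GS-2 (1.15). Of these, FAD3A, MIPS and GS-2 were called lower in all 3 treatments, SODB in AZC and LOC547931 in TUN. Over all clones tested, 2.75% were called lower in TUN, 5.12% in AZC and 7.02% in PEG. All of the clones named here, LOC100037476 included, were picked for ratios near those of members with low ratios. Their low values and calls follow from that choice. FAD3A, for example, had ratios of -1.11 and -0.78 in TUN, -2.52 and -2.43 in AZC, and -0.69 and -1.38 in PEG. With the other member ranked among these clones, CYP93E1 would be number 4 for F3H, and F3H number 2 for CYP93E1. These points share the same 12 arrays, and the clones are not independent of each other.

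**Figure D5:**
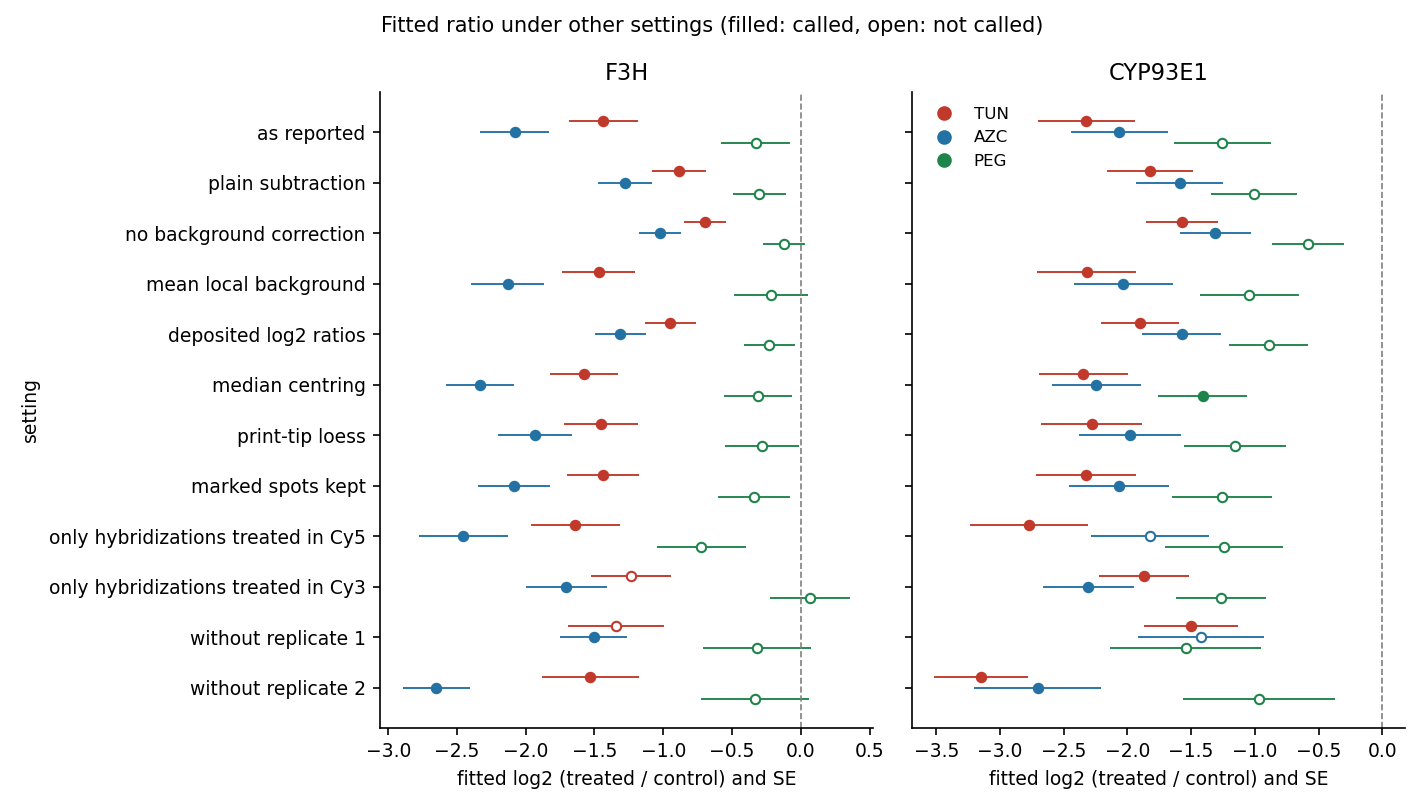
Fitted log2 ratio and SE (x axis) of F3H (left) and CYP93E1 (right) in TUN, AZC and PEG under the reported and 11 other settings (y axis), with filled points for values that passed an adjusted p of 0.05 and open points for those that did not. Only F3H in PEG crossed 0, at 0.07 with the Cy3 hybridizations alone among the settings shown, and the F3H values moved towards 0 where the background was left in, to -0.70 in TUN and -1.03 in AZC.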

How the data were processed

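The authors deposited scanner tables with mean foreground and median background intensity, marks and the percent of saturated pixels for each spot and dye, and a table of LOWESS-normalised log2 ratios made with their own software; the latter served as an alternative. Per the file headers, 1 hybridization was quantified by Adaptive Circle and the others by Histogram. From the intensities, limma 3.58.1 (R 4.3.3) gave normexp background correction (offset 50), global loess within arrays and ratios turned to treated over control by dye. Spots with marks 1 or 4 were left out. The dye-swap pair was averaged, so 6 values per clone entered 1 fit with a coefficient per treatment, an intensity trend and Benjamini-Hochberg adjustment over all clones tested (threshold 0.05). A filter (3 of 4 hybridizations of an RNA group above background plus 2 SD) removed no spot, and clones needed both orientations in both replicates. Levels used Aquantile normalization.

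As listed, the PEG replicate 1 files correlated with their own deposited ratios at -0.50 and -0.48, and exchanged at 0.977 and 0.979. The members, gene lists and markers were chosen with earlier results of these data known. Median in place of mean local background, in the fit and in the filter, was settled on after both had been seen, with earlier counts of these data in view. The alternatives with the mean local background and with array weights were chosen after seeing the data. Besides the members, the text names every listed pathway clone and, for each member, the 5 clones with the smallest root mean square difference over the replicate ratios. The fit was tested on simulated data. A single fit shares its spread over treatments; the median SD between replicates was 0.136 in TUN, 0.112 in AZC and 0.142 in PEG. Alternatives covered background, normalization, marks, filter, trend, block, orientation, replicates, shared spread and the methods' t-test.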

Additional observations from a re-analysis of the deposited data

Results flagged for a closer look

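Of 33 groups of 4 hybridizations examined, for the members and the listed pathway clones in each treatment, 1 had a value far from the rest, and chance alone gives about 1 in 20. This was clone AW100723 of CHI3A1 (chalcone isomerase family) in AZC, with log2 ratios of 0.06 and 0.14 in replicate 1 and -0.38 and 0.08 in replicate 2. The gap below the second lowest value took up 0.854 of the whole range. The low value had the treated RNA in Cy5.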

How the results depend on the processing

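The calls of the members describe values that chose them and say nothing of their stability. Among the alternatives counted here, the fit without the filter could not differ, since the filter removed no spot. The stricter filter left the values of the members unchanged. F3H in AZC ran from -2.65 to -1.03 and CYP93E1 in TUN from -3.15 to -1.50 over 19 alternatives, on the same side of the threshold. F3H in TUN stayed on it in 17 and did not pass with the Cy3 hybridizations alone (-1.23) or without TUN replicate 1 (range without 1 replicate -1.53 to -1.34). CYP93E1 in AZC stayed on it in 16 and did not pass without the intensity trend (-2.06), with the Cy5 hybridizations alone (-1.82) or without AZC replicate 1 (range -2.71 to -1.42). F3H in PEG passed in none of 20 and turned positive with the Cy3 hybridizations alone (0.0686) and with the PEG replicate 1 files as listed (0.0067), where CYP93E1 was -0.29. CYP93E1 in PEG passed under median centring (-1.41) and, at -1.26, fitted by itself, with 12 hybridizations and a dye term, and with the replicate block. The cause of these changes was not tested. The fits on 1 orientation or replicate also held fewer samples.

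The replicate numbers did not pair the samples: replicate 2 minus replicate 1 correlated across 3523 clones at 0.13 between TUN and AZC, -0.06 between TUN and PEG and -0.07 between AZC and PEG. With the replicate block 382 clones were called in TUN, 449 in AZC and 488 in PEG, and no other call of a member changed.

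The number of clones called was 356 in TUN, 457 in AZC and 504 in PEG. It became 193 in TUN with each treatment fitted by itself, 233 in TUN with Cy3 alone, 245 in AZC with Cy5 alone and 1328 in AZC under median centring. Without PEG replicate 2 in Cy5 it was 210 in TUN and 271 in AZC. Without 1 biological replicate it ran from 219 to 431 in TUN, from 190 to 273 in AZC and from 179 to 401 in PEG. With the PEG replicate 1 files as listed 0 clones were called in PEG by limma. The methods' t-test called 708 in TUN, 965 in AZC and 598 in PEG unadjusted. With the fold limit added, the setting nearest to the study's rule, it called 348 in TUN, 455 in AZC and 357 in PEG. After Benjamini-Hochberg it called 1 in TUN, 142 in AZC and 6 in PEG, or 1, 126 and 4 with the fold limit. In PEG the deposited ratios called 262 clones higher and 263 lower, against 199 and 305 in the reported fit. Signal over background was a limit in PEG replicate 2 in Cy5, where the treated channel of neither member was above it.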
